A study of Potamopyrgus antipodarum with 6 samples.

Results

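The windows described here are 100 bp stretches of the reference in which the methylation signal differed among pools of snails from the same lake. They were chosen by the measured read counts of the 6 pools, and 710 of 739509 windows met the rule. The count of each pool was scaled to a common total, as CPM. A window was kept where its mean raw count over the 3 Lake 2 pools was 15 to under 150 and its highest Lake 2 CPM was at least 2.5 times its lowest. Windows in which all Lake 2 pools lay above, or all below, every River 1 pool were left out. Of 52556 windows in the range of counts, 730 reached the fold, and 20 of these were left out because the sites did not overlap.

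Methylated DNA immunoprecipitation sequencing (MeDIP-seq) was carried out on foot tissue of *Potamopyrgus antipodarum*, a freshwater snail whose introduced populations are asexual. Lake 2 was Lake Washington, which has no current, and River 1 was the Snake River itself near Ritter Island, where the water flows fast. There were 3 pools from the lake (4, 5 and 6) and 3 from the river (7, 8 and 9), and a pool is labelled as 10 snails. The paper states that more snails were added where the DNA yield was low, so pools may have differed in size. The study sought regions that differ between the habitats, and the windows below are a measure of how far pools of 1 habitat differed among themselves. Snails of both sites were wild collected, carried no treatment and were held in the laboratory for several days before dissection, and their ages were not given. Window counts summed to between 3317802 in pool 8 and 4994212 in pool 4, and no window held more than 300 counts in a pool. In windows of low counts pool 4 ran high and pool 8 ran low against the other pools, so some results that turn on either are also given without it. A pool averages its snails, so a change in all snails and a larger change in a few snails cannot be told apart.

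In MeDIP, sheared DNA is enriched with an antibody that binds methylated cytidine, so reads pile up where methylated CpG sites are dense. In molluscs and most other invertebrates methylation is patchy, and it lies mainly in the bodies of actively transcribed genes while much of the remaining genome is bare. The reference was made of joined transcripts, and the coordinates of the study's regions leave gaps between neighbouring transcripts. Windows with reads (221751 of 739509) thus lie in or near transcribed sequence, exons without introns, and the empty ones include the gaps. Positions are those of the joined transcripts and not of a chromosome. The measure is relative to the other reads of the same pool, and no sequence or CpG content of the windows was used here.

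The chosen windows stood at the low end of the range of counts. Their mean Lake 2 count had a median of 17.7 and a maximum of 51. The lowest Lake 2 pool held a median of 8 counts and the highest a median of 28. Of the windows with a mean of 15 to under 20, 4.25% were chosen (481 of 11320). The share was 1.84% at 20 to under 25, 0.953% at 25 to under 30, 0.413% at 30 to under 40 and 0.115% at 40 to under 60. In the 13369 windows with a mean of 60 to under 150 no window reached the fold. Large folds among the lake pools were thus found where a window held few reads, and the plot of the share by count class shows the steep decline. The share of all windows in the range that reached the fold was 1.39%.

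**Figure D1:**
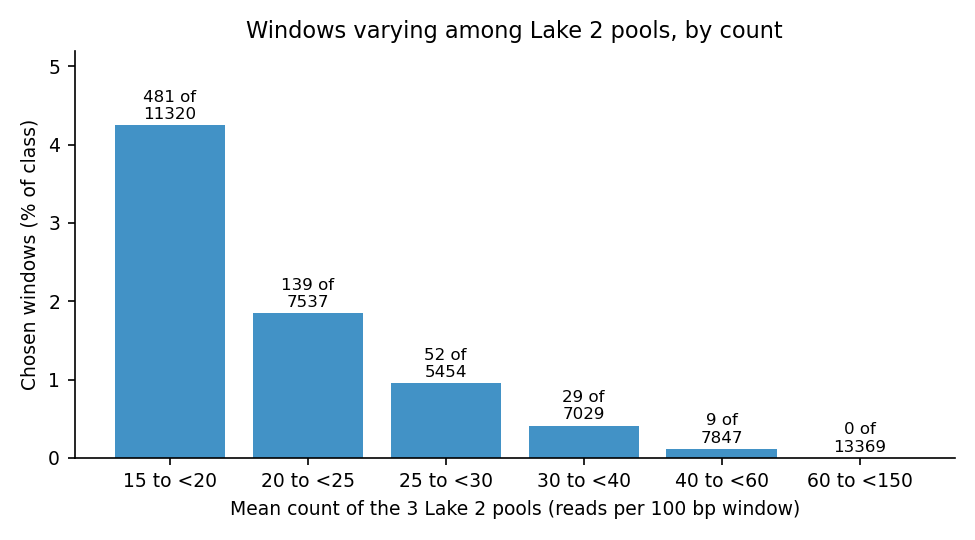
Share of windows chosen (%) by class of mean Lake 2 count (counts per window), with the number chosen over the number of windows in each class. The share falls from 4.25% at 15 to under 20 counts to 0 of 13369 windows at 60 to under 150.

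The fold between the highest and the lowest Lake 2 pool ran from 2.5 to 9.61 with a median of 2.84, against a median of 1.28 over all windows in the range. It was at least 3 in 257 chosen windows, at least 4 in 29 and at least 5 in 12. An exact 95% interval was set on each fold from the counts of the pools compared. It covers counting error only, and it is not adjusted for the picking of the highest and the lowest of 3 pools. Its lower bound was above 1 in all 710 windows, above 1.5 in 121 and above 2 in 17. The rule chose on these same counts, and its limits on fold and count leave little room for a bound under 1. The bounds are thus a description and give no test of a difference among pools. At the threshold, the window at 5949001 held 46, 16 and 37 counts in pools 4, 5 and 6 (fold 2.5) and the one at 3349401 held 45, 18 and 42 (fold 2.52). Just outside it, the window at 39529801 held 78, 34 and 24 counts and the one at 62271101 held 45, 15 and 30 (fold 2.49). The values just inside and just outside were alike, so the threshold cut through a continuous spread.

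The 710 windows lay in 635 stretches, a stretch being a run of reads not broken by 9 or more windows empty in all pools. A single chosen window was held by 569 stretches, 60 held 2, and 3 each held 3 and 4. There were 125 chosen windows (17.6%) next to another one, in 66 adjacent pairs, and in 51 of these pairs both windows had the same highest and the same lowest pool. A read may be counted in adjacent windows, so such pairs are in part the same reads. When the joined reference was cut into 10 equal parts, chosen windows occurred in each, and made up 3.41% of the windows with a mean of 15 to under 30 in part 1 and 1.76% in part 6. The highest mean within 500 bp was held by 31.0% of the chosen windows and by 29.3% of the others of that class of counts.

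The pools did not share the extremes evenly. Pool 4 was the highest lake pool in 467 windows (65.8%), pool 5 in 144 (20.3%) and pool 6 in 99 (13.9%). The lowest was pool 6 in 389 windows (54.8%), pool 5 in 303 (42.7%) and pool 4 in only 18 (2.54%). The commonest pattern was pool 4 high and pool 6 low, in 256 windows, followed by pool 4 high and pool 5 low in 211, pool 5 high and pool 6 low in 133, and pool 6 high and pool 5 low in 92. Pool 4 was the lowest with pool 5 highest in 11 windows and with pool 6 highest in 7. Summed over the chosen windows, the pools held 4203, 2672 and 2464 CPM in pools 4, 5 and 6 and 2803, 2310 and 2973 CPM in pools 7, 8 and 9. By these sums pool 4 lay above every other pool of either site, while pools 5 and 6 lay within the spread of the River 1 pools. The rule chose on the lake values and pool 4 was most often the highest, so its place follows in part from the choice.

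Pool 4 also had the largest total count, and its levels differed from those of the other pools over all windows, not only the chosen ones. In windows with a mean Lake 2 count of 15 to under 30, the median log2 ratio of a pool to the window's median was 0.19 in pool 4, 0.03 in pool 5, 0.02 in pool 6, -0.02 in pool 7, -0.33 in pool 8 and -0.04 in pool 9. Pools 4 and 8 changed places with rising counts, to -0.05 and 0.05 at 60 to under 150 and to -0.17 and 0.13 in windows of 150 or more. Pool 8 had the smallest total. Windows in which a pool's own count was 150 or more held from 27.6% of its total in pool 8 (4558 windows) to 32.4% in pool 4 (7744 windows). These windows differ from pool to pool and are more numerous in pools with larger totals, so the 2 shares do not compare the same windows. The plot of level by count class shows the tilt of pools 4 and 8 with count. The part of this tilt in the share of windows highest in pool 4 was not tested. With TMM scaling (edgeR's trimmed mean normalization) pool 4 was the highest in 360 of 609 windows chosen (59.1%), and with DESeq2's size factors in 277 of 552 (50.2%). The rule applied without pool 4, to pools 5 and 6 alone, chose 157 windows, of which 150 were among the 710, and without pool 5 or pool 6 it chose 343 and 337.

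Among the chosen windows with more reads, 38 in 34 stretches had a mean Lake 2 count of at least 30. Of these 28 were highest in pool 4, and 5 each in pools 5 and 6. In 23 of the 38 the lower bound of the fold was above 1.5. The window at 12596101 had the largest fold of this set, with 57, 28 and 8 counts in pools 4, 5 and 6 and 29, 28 and 58 in pools 7, 8 and 9 (fold 5.48, interval 2.60 to 13.3). Pool 6 was the one that stood apart there, and pool 4 of the lake and pool 9 of the river were alike. At 25308701 lake pools held 69, 26 and 13 counts and river pools 21, 25 and 33 (fold 4.08, interval 2.24 to 8.04), with pool 4 high and the river pools all between pools 6 and 4. The window at 10076901 repeated the first pattern with 54, 34 and 12 counts in the lake and 32, 33 and 59 in the river (fold 3.46). Only 1 of the 38 was lowest in pool 4, the window at 38758801, where pool 5 was the high one with 53 counts against 18 in pool 4 and 23 in pool 6 (fold 3.54), and the river pools held 22, 19 and 11. The largest fold of all 710, noted after the values were seen, was at 20977001 with 25, 19 and 2 counts in Lake 2 (fold 9.61, interval 2.40 to 83.7). The river pools held 15, 7 and 16 there, between the lake extremes, and the wide interval follows from the low count of pool 6.

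The windows with the most reads for each high pool gave the same range of patterns. The one highest in pool 4 was at 4718101 with 91, 27 and 35 counts in the lake and 30, 24 and 51 in the river. The one highest in pool 6 was at 7260101 with 50, 22 and 54 counts in the lake and 33, 12 and 22 in the river. The one highest in pool 5 was at 31720501 with 36, 48 and 17 counts and 23, 13 and 18. Scaled to CPM, the second of these held 10.0, 5.30 and 14.1 in pools 4, 5 and 6, with pool 4 between the extremes.

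A few stretches held several chosen windows, and in these the extent of a difference could be followed. From 3724601 to 3725000 4 adjacent windows held 49, 19 and 12 counts, 55, 23 and 14, 54, 26 and 13, and 50, 36 and 15 in pools 4, 5 and 6, and between 9 and 35 in the river pools. Pool 4 was highest and pool 6 lowest among the lake pools in each, over the whole width of the signal (panel B of the plot of stretches). From 4717801 to 4718200 4 adjacent windows went from 30 to 91 counts in pool 4 and from 9 to 35 in pool 6. These windows were the flank of a summit 700 bp from the first chosen window, and at that summit the 6 pools were nearly equal at 39.2 to 41.7 CPM. On the flank, at 300 bp, pool 4 held 18.2 CPM and the next highest pool 11.6. From 10448601 to 10448900 pool 4 held 83, 54 and 43 counts, pool 5 26, 13 and 16, and pool 6 19, 13 and 12, while at a summit 700 bp along all pools lay between 32.3 and 35.7 CPM. The pools were also apart on the near side of these windows, where pools 4, 5 and 6 held 24.8, 15.4 and 10.4 CPM at 200 bp before the first chosen one. Over all windows pool 4 also went from high to low with rising counts, and counts do not exceed 300. The part of this in the likeness of the pools at both summits was not tested. In the stretch from 17921001 to 17921300 pool 5 was the lowest lake pool in all 3 chosen windows, with 14, 14 and 12 counts against 46, 49 and 39 in pool 4.

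**Figure D2:**
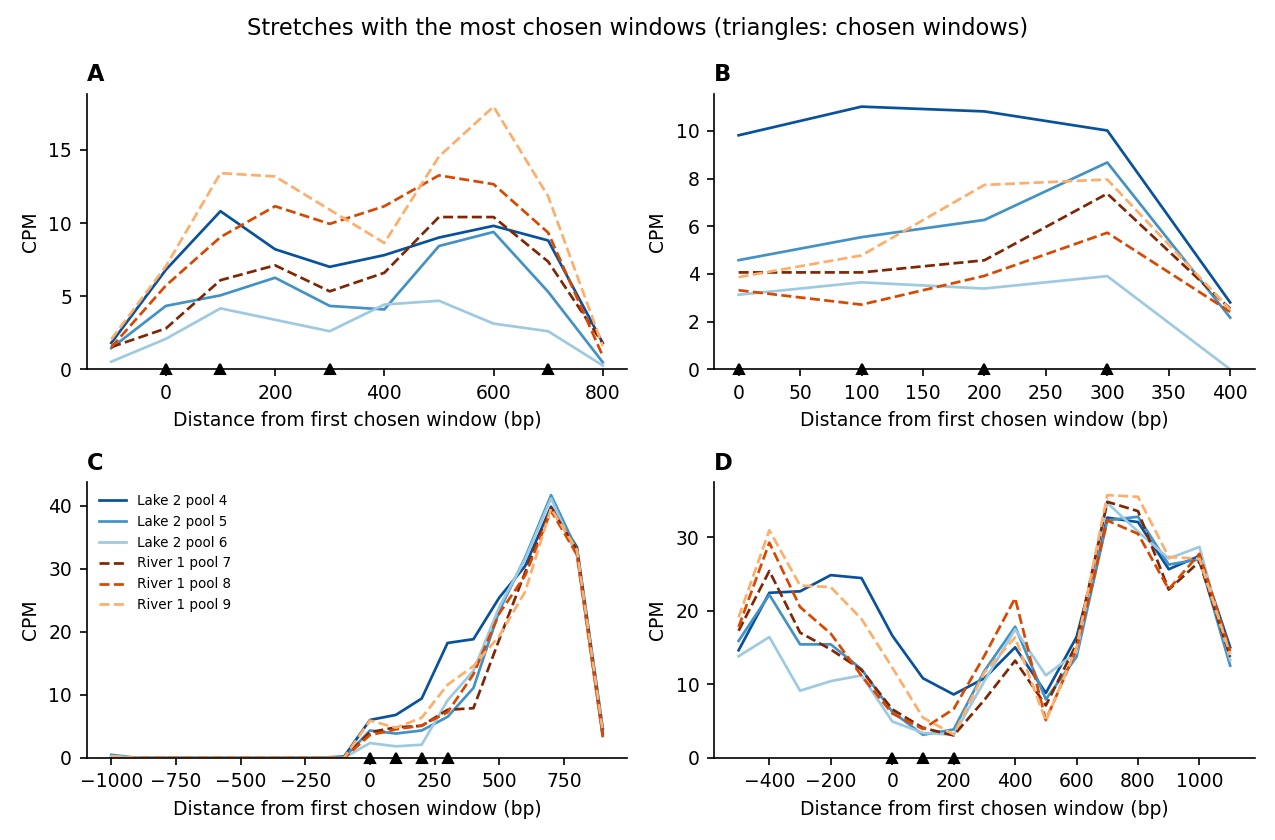
CPM of each pool (y axis) along 4 stretches by distance from the first chosen window in bp (x axis), with triangles at chosen windows, solid lines for Lake 2 and dashed lines for River 1. In panels C and D the pools are apart at the chosen windows, in D also before them, and meet at a summit 700 bp along, whereas in panel B pool 4 lies highest over the whole signal.

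A similar order of pools could be sought along the rest of each stretch. For every chosen window, other windows of its stretch with a mean Lake 2 count of at least 5 were scored by whether they too were higher in the pool where the chosen window was highest than in the one where it was lowest. Neighbours 100 bp away did so in 95.9% of pairs, against 80.4% around other windows of the same range, and those 400 bp away in 67.6% against 59.5%. The rule chose for large folds and nearby windows may share reads, so the gap at short distance was in part built in. At 500 to 2000 bp, too far for a read to be counted in both, the share was 56.5% (503 of 891 pairs, around 256 chosen windows in 230 stretches) against 55.1% around other windows. By the highest pool it was 64.6% for pool 4, 38.4% for pool 5 and 39.3% for pool 6, against 58.9%, 52.8% and 51.2% around other windows. A comparison set after the data were seen took windows with a mean of 15 to 30 counts and a fold of 2 to 2.5. Around these the share over all pools at 500 to 2000 bp was 55.8%. Pairs of windows are not independent, so these shares carry no test. A stretch may also span an empty run of fewer than 9 windows, which may be a gap between transcripts. Some pairs may thus join windows of different transcripts, and how many do so was not tested. The shared order faded within about 500 bp of the chosen windows, but this cannot be read as a fading within single transcripts. At 500 to 2000 bp the shared order was above that of other windows only where pool 4 was the high pool. With TMM the share at 500 to 2000 bp was 51.4%, under the 54.8% around other windows, and without pool 4 it was 52.3% against 51.4%.

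**Figure D3:**
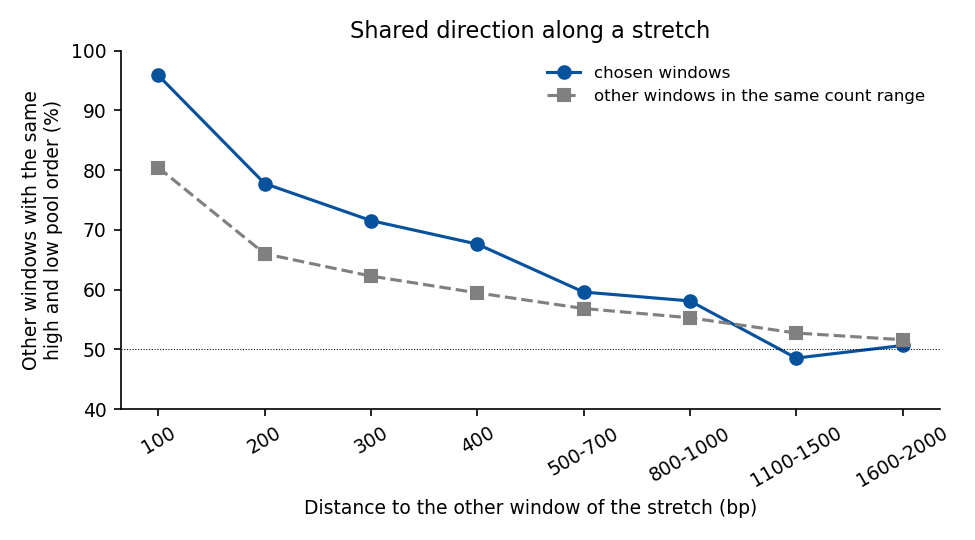
Share of neighbouring windows (%) that are higher in the pool where the central window is highest than in the pool where it is lowest, by distance in bp, for chosen windows and for other windows of the same range of counts. The lines start at 95.9% and 80.4% at 100 bp and meet near 50% beyond 1000 bp.

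The fold among the River 1 pools was not used by the rule, although the leaving out of separate sites was. It reached 2.5 in 132 of the 710 chosen windows (18.6%), against 7.5% of all windows in the range whose sites overlapped. The gap was smaller within classes of count. In windows with a mean Lake 2 count of 15 to under 30 the shares were 19.3% (130 of 672) and 14%, and in those of 30 to under 60 they were 5.26% (2 of 38) and 2.93%. In narrower classes, set after the data were seen, they were 20.0% and 17.3% at 15 to under 20, 18.7% and 12.1% at 20 to under 25, and 15.4% and 9.18% at 25 to under 30. Within a class the River 1 counts of the chosen windows were also lower, with a median mean count of 13.3 against 16.3 at 15 to under 30, and the part of this in the gap was not tested. Windows are not replicates, and the shares carry no test. Without pool 8 the share, between the remaining pair of river pools, was 4.65% against 1.42% over the whole range of counts. It was not split by class of count, so it is to be set beside the first pair of shares only.

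The fold among the River 1 pools varied widely over the chosen windows. Its median was 1.79, and it was under 1.5 in 204 of them (28.7%). At 15 to under 30 counts it was under 1.5 in 28.0% of the chosen windows and in 37.3% of the other windows with overlapping sites. At 6443801 the river pools held 44, 36 and 55 counts (fold 1.15) while the lake pools held 69, 44 and 15 (fold 3.54), and at 12670201 they held 37, 32 and 47 (fold 1.14) against 73, 33 and 20 in the lake (fold 2.81). At 46490701, by contrast, both sites were spread, with 43, 19 and 12 lake counts and 22, 23 and 54 river counts (fold 2.20 among the latter). All 3 river pools lay between the highest and the lowest lake pool in 345 windows (48.6%), which the rule favours, since it asks for a wide lake range and leaves out separate sites. The mean of the river pools lay within these extremes in 630 windows, below them in 56 and above them in 24.

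The same rule turned on River 1 chose 1180 of 43729 windows (2.70%), against 1.35% for Lake 2. Of these 970 were lowest in pool 8, the pool with the smallest total, and the highest was pool 7 in 595 and pool 9 in 536. The share for River 1 was not recomputed without pool 8. The 28 windows chosen by both rules made up 3.94% of the Lake 2 windows and 2.37% of the River 1 windows. Both rules leave out windows with separate sites, so the 2 sets are not independent.

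The river level went with the identity of the low lake pool. In the 303 windows lowest in pool 5, the median CPM was 5.81, 2.17 and 4.69 in pools 4, 5 and 6 and 3.56, 2.41 and 3.18 in pools 7, 8 and 9. The river mean was below the lake mean in 272 of them (89.8%), with a median ratio of 0.691. In the 389 windows lowest in pool 6, the median CPM was 5.41, 4.58 and 2.08 in the lake and 3.81, 3.32 and 4.32 in the river, and the river mean was below the lake mean in 222 (57.1%), with a median ratio of 0.946. By these medians pool 5, where it was the low pool, lay just under the lowest river pool, whereas pool 6 lay well under all river pools where it was the low one. Among other windows of 15 to under 30 counts the river mean was lower in 77.2% of those lowest in pool 5 and in 64.0% of those lowest in pool 6. The shares of the chosen windows fell to 68.0% and 33.9% when pool 4 was left out of the lake mean. Among the windows with a mean count of at least 30 the contrast was the same, with the river mean lower in all 14 windows lowest in pool 5 and in 10 of the 23 lowest in pool 6. In 18 of those 23 windows pool 9 was the highest river pool, against 49.9% of all 389 chosen windows lowest in pool 6 and 43.7% of the other windows of 15 to under 30 counts lowest in pool 6. The 389 include the 23, some of the 23 are adjacent and may share reads, and no share was computed for other windows of at least 30 counts. The plot of these windows by pool gives each of them, and in those lowest in pool 6 the median went from 10.8 CPM in pool 4 to 3.65 in pool 6, with 7.37, 7.54 and 9.32 in the river pools.

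**Figure D4:**
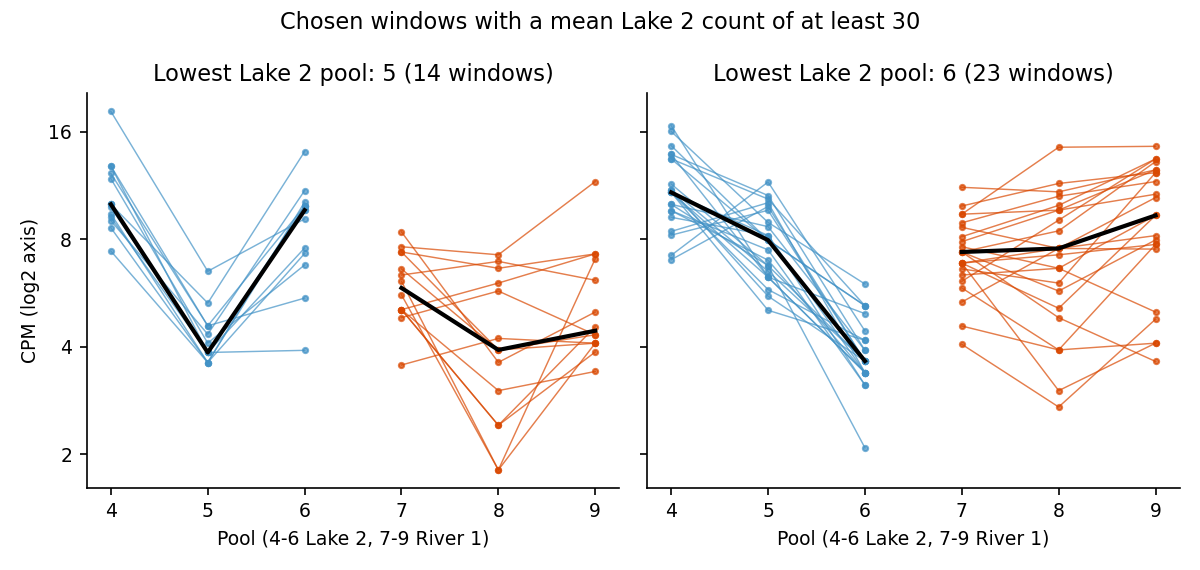
CPM (log2 axis) in each pool (x axis) of the chosen windows with a mean Lake 2 count of at least 30, a thin line for each window and a thick line for their median, in 14 windows lowest in pool 5 (left) and 23 lowest in pool 6 (right). On the left the river mean is under the lake mean in all 14 windows, and on the right in 10 of 23.

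Between the sites, each window was tested with edgeR's quasi-likelihood test in 151608 windows (summed count of 10 or more), and log2 fold changes are River 1 minus Lake 2. The rule used the counts of both sites, so the calls are given as a description. None of the 710 windows passed the study's p-value threshold of 1e-05, against 0.147% of all windows tested. In DESeq2's Wald test and edgeR's exact test the number was also 0, against 10 and 402 of the 151608 windows tested. It was 0 without pool 4, 6, 8 or 9, against 99 of 142109, 67 of 146539, 121 of 146553 and 103 of 142312. At a summed count of at least 1 it was 2 of the 710, against 644 of 221751 windows tested. Without pool 5 it was 7, against 295 of 145317, and without pool 7 it was 3, against 536 of 145427. In the quasi-likelihood test 8 (1.13%) had a Benjamini-Hochberg adjusted p under 0.05, against 1.42% of all, and 170 (23.9%) had an unadjusted p under 0.05, against 14.3%. Of these 170, 146 were higher in Lake 2 (20.6%, against 9.01% of all windows) and 24 in River 1 (3.38%, against 5.26%). All windows tested include many with fewer reads than the rule asks for, and the rule's limits on counts lie on Lake 2 alone. Shares within the same class of counts were not computed, so these gaps cannot be laid to the chosen windows as such. The chosen windows had a median log2 fold change of -0.28, against -0.01 over all windows tested. Of the 710, 507 (71.4%) were lower in River 1, against 76419 of the 151608 windows tested. The gap was smaller within the class of 15 to under 30 counts. There the median was -0.28 in the chosen windows and -0.14 in the other windows with overlapping sites, and 71.9% and 64.9% were lower in River 1. The rule leaves no chosen window with separate sites, which made up 19.1% of all windows tested and 27.9% of those in the range.

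Of the 8 windows with an adjusted p under 0.05, 7 were higher in Lake 2, and all 7 were lowest in pool 5 with pools 4 and 6 above the river mean. Lake pools held 34, 5 and 19 counts at 19645401, and river pools 5, 6 and 2. Pool 5 lay among the river pools there, and the log2 fold change was -1.95 (standard error 0.45, adjusted p = 0.0171 by edgeR). The single window higher in River 1 was at 25942401, with 44, 28 and 13 counts in the lake and 27, 46 and 65 in the river (log2 fold change 0.88, standard error 0.23, adjusted p = 0.0373 by edgeR). These calls turned on single pools. Without pool 6 or by DESeq2's test none of the chosen windows passed (0.209% and 0.00528% of all windows tested did), and without pool 5 the number was 72 (10.1%, against 1.91% of all), of which 68 were higher in Lake 2. Without pool 4 it was 8 (1.13%, against 0.346%), all higher in River 1. Without pool 7 it was 50 (7.04%, against 3.51%), without pool 8 it was 1 (0.141%, against 0.467%) and without pool 9 it was 2 (0.282%, against 0.316%).

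Gene names were available for 25 chosen windows, which lay in regions that the study's supplementary tables of lake and river differences give a gene name by sequence hits in other species. They made up 3.52% of the chosen windows, against 1.97% of all windows in the range. In windows of 15 to under 30 counts, 24 of the 599 named ones were chosen (4.01%), against 2.76% of the whole class. These regions were called as differing between sites, 19 of the 25 windows on these same pools, so the names are not an even sample of the chosen windows. Pool 4 was highest in 20 of the 25, pool 6 in 4 and pool 5 in 1, and the lowest was pool 5 in 17 and pool 6 in 8.

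The named windows lowest in pool 5 included genes of protein folding, metabolism and translation. At 12222401, named hspa5 after the chaperone of the endoplasmic reticulum, the lake pools held 64, 19 and 38 counts and the river pools 20, 8 and 20. Pools 4 and 6 stood above all river pools and pool 5 among them (lake fold 2.80, interval 1.66 to 4.95), with a log2 fold change between the sites of -1.15 (standard error 0.27, adjusted p = 0.0172 by edgeR). At 13328201, named ass1 (argininosuccinate synthase, an enzyme of arginine synthesis), the counts were 40, 11 and 26 in the lake and 19, 9 and 16 in the river. The window at 2688501, named RPL35A (a protein of the large ribosomal subunit), had 28, 9 and 32 counts in the lake and 17, 5 and 8 in the river (lake fold 3.85, interval 1.79 to 9.16). The low lake pool lay within the range of the river pools at hspa5 and RPL35A and just under it at ass1.

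Other named windows lowest in pool 5 held fewer reads. The pair at 242801 and 242901 was named atp5a1, the catalytic core's alpha subunit of mitochondrial ATP synthase, with 26, 8 and 13 and 31, 11 and 26 counts in the lake and 8 to 16 in the river. Both windows named ddx39b, an RNA helicase of splicing and mRNA export, were lowest in pool 5, with 23, 9 and 21 counts at 166401 and 25, 8 and 13 at 167101. Windows at 16140001 (cttn, the actin-binding protein cortactin) with 33, 9 and 17 counts and at 5141901 (kmt2d, a histone methyltransferase) with 28, 8 and 10 showed the same low pool. All of these windows had an adjusted p above 0.05 between the sites by edgeR.

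The named windows lowest in pool 6 were led by COX1, the mitochondrially encoded subunit of cytochrome c oxidase that carries its catalytic centre. All 4 chosen windows with this name went down in CPM from pool 4 to pool 5 to pool 6. At 649001 the counts were 44, 22 and 10 in the lake and 29, 31 and 52 in the river (lake fold 3.38, interval 1.68 to 7.54), and at 648601 they were 35, 18 and 10 and 21, 33 and 48. At 3615601 they were 24, 17 and 6 in the lake and 17, 22 and 46 in the river, and at 30001 31, 10 and 9 and 17, 17 and 38. Pool 6 held the lowest CPM of the lake and pool 9 the highest CPM of the river in each of the 4. Together with 2 unnamed windows at 648301 and 648401, the first pair made up one of the stretches with the most chosen windows (panel A of the plot of stretches), in which pool 6 lay below every other pool at each chosen window. The amount of mitochondrial DNA in each pool was not measured, and its part in these differences was not tested.

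The named window with the largest fold was at 922401, in a region named Pepck (phosphoenolpyruvate carboxykinase, an enzyme of gluconeogenesis). It held 33, 10 and 4 counts in the lake and 6, 7 and 7 in the river (lake fold 6.34, interval 2.26 to 24.6). Pool 4 alone stood out there, while pool 5 lay just above and pool 6 just below the river pools. The window at 15884401, with the name SPRG_12594, also had pool 4 alone high, with 32, 8 and 8 lake counts and 7, 7 and 1 river counts. The only named window highest in pool 5 was at 207801 (LOC107219277), with 25, 26 and 7 counts in the lake and 11, 13 and 15 in the river, where pool 6 was the low pool.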

How the data were processed

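MeDIP-seq counts of 6 pools were used. The authors aligned reads with Bowtie2 to joined transcripts of the species, sorted the alignments (SAMtools) and used MEDIPS to count per 100 bp window, and versions were not given in the sources used here. The deposited counts are whole reads of each window and were not normalized. A further 6 per-pool columns of RPKM values were not used, nor were the columns of the authors' own comparison, which hold group means, log fold changes, p-values and adjusted p-values. Lake 2 columns matched the samples' labels. The numbers of the River 1 columns match the title of one sample and the description of another, so these columns were taken as River 1 pools with no sample of their own. Adjacent windows share reads, and counts do not exceed 300, which compresses differences at high levels. The pools of a site were made by dividing the snails sampled there, so p-values measure the spread between pools of 1 sample per site.

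Counts were scaled to CPM by the column sum. The sites were compared over the whole table with edgeR 4.0.16 (quasi-likelihood test, TMM, R 4.3.3) where the 6 pools held 10 or more counts together, with Benjamini-Hochberg adjustment. The script was first tested on simulated data. Alternatives were DESeq2 1.42.0, edgeR's exact test, other scalings, folds, count limits and distances, and leaving out each pool. Intervals of folds are exact (Clopper-Pearson) at 95%. The windows and the lists were chosen with earlier results of these data known. The windows named were the 10 with the largest fold at a mean count of at least 30, those of the 5 stretches with the most chosen windows, the 20 with the most reads and a gene name (up to 2 per gene), those next to the fold of 2.5, the one with the most reads for each high pool, and the 3 with the largest and the 3 with the smallest river fold at a mean River 1 count of at least 30. The windows at 20977001, 30001, 3615601 and 5141901 were named after their values were seen.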

Additional observations from a re-analysis of the deposited data

How the results depend on the processing

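The number of chosen windows was 609 with TMM, 552 with DESeq2's size factors and 730 with separate sites kept. It was 38 at a lower limit of 30 counts, 2618 at a fold of 2 and 257 at a fold of 3, and ran from 157 (without pool 4) to 700 when 1 pool was left out. Highest in pool 4 were 277 windows with size factors and 28 at the limit of 30, where 5 each were highest in pools 5 and 6. Windows past 1e-05 between the sites numbered 143 with library size alone, 644 at a summed count of at least 1, 10 by DESeq2 and 402 by edgeR's exact test, against 223, and 67 (without pool 6) to 536 (without pool 7) with 1 pool left out. The share of chosen windows with a river fold of 2.5 became 39.0% at a fold of 2, 9.72% at a fold of 3 and 9.66% at a mean River 1 count of at least 15 (against 3.41% of all such windows), and 4.65% to 10.3% between pairs of river pools. The shared direction became 51.4% with TMM, 63.2% from 300 bp, 50.2% from 1000 bp and 52.7% among neighbours of at least 15 counts (56.0% around other windows), and ran from 52.3% to 57.2% with 1 lake pool left out. The limits and folds change which windows are counted, and for the scalings, the tests and the pools left out the cause was not tested. Of 104 folds of the 52 named windows recomputed with both scalings, 19 fell under 2.5. None left its counting interval, but a scaling changes all folds between the same 2 pools by 1 factor, small against these intervals. At 12596101 the fold went from 5.48 to 5.14 with TMM and 4.96 with size factors, within an interval of 2.60 to 13.3. The intervals were thus no check on the scalings. With a median of 8 counts in the lowest lake pool, counting error limits the fold of most windows. No paired analysis was possible because the pools of the sites share no numbers.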
